A study of Homo sapiens with 9 samples.

Results

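BruUV-seq after UV light was compared with Bru-seq in the human pancreatic cancer cell line PANC-1, to see which classes of genes held a larger or smaller share of newly made RNA once the effect of gene length had been taken out. The comparison set all 3 BruUV-seq libraries against all 6 Bru-seq libraries, which together are the 9 libraries of the series, chosen by their assay label. Bru-seq labels nascent RNA with bromouridine (2 mM for 30 min, with a chase of 0 h), and the BruUV-seq cells also received 100 J/m2 of UV light. Besides a control line that got no guide RNA (WT), CRISPR/Cas9 editing of KDM6A, whose enzyme takes repressive methyl groups off histone H3, gave the knockout lines KO C22 and KO C28. Each line had Bru-seq replicates 1 and 2 and 1 BruUV-seq library, and each knockout line is 1 clone. Whether the replicates came from separate cultures is not stated, so each p-value reflects no more than the spread of these libraries, which may be technical. Below, Bru-seq values come as pairs of replicates 1 and 2, first WT, then KO C22, last KO C28, and BruUV-seq values follow that order of lines.

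UV light forms pyrimidine dimers in DNA, and RNA polymerase II stops where it meets one in the template strand. A polymerase in a long gene is more likely to meet a lesion before the end of the gene than one in a short gene, so long genes lose nascent signal and reads gather towards transcription starts and at active enhancers. UV light also sets off transcription-coupled nucleotide excision repair, stress kinases that act on the AP-1 factors JUN and FOS, the integrated stress response and p53.

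Reads in genes numbered 14.4 to 31.1 M in 8 of the libraries and 5.64 M in Bru-seq KO C28 replicate 2. In that library 46.5% of reads lay outside genes, against 9.93% to 20.01% in the others, and its correlations with the other libraries across genes were 0.671 to 0.820. It is a library that stands apart, so results are given with all 9 libraries and, for calls and class medians, also with the 8 that remain without it. Bru-seq WT replicate 2 also differed from the other Bru-seq libraries, with medians at matched gene length of -2.09 for mitosis genes and 1.27 for immediate early genes on the log2 scale. KDM6A was at 317 and 275, 259 and 429, and 325 and 81.1 CPM (counts scaled to the depth of the library's reads in genes, with TMM factors) in Bru-seq and at 201, 123 and 190 CPM in BruUV-seq. The gene was read in the clones as in WT, and reads summed over a whole gene do not check an edit within it. All 7 ductal and epithelial markers were detected, but CDH1, EPCAM and KRT7 reached no more than 0.236, 0.348 and 0.708 RPKM. The 12 markers of leukocytes, endothelium, acinar, islet and liver cells summed to 0.705 to 3.34 RPKM. Most of it was CD68, at 0.584 to 3.29 RPKM, and INS was at 0. A CPM is a share of the reads in genes, so a fall in total RNA synthesis is not seen in these values, and fewer cells and less RNA per cell cannot be told apart.

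The share of reads in long genes was smaller in BruUV-seq than in 5 of the 6 Bru-seq libraries. Genes of 100 to 300 kb took 32.4% and 30.98%, 33.7% and 37.4%, and 32.5% and 22.5% of reads in genes in Bru-seq and 27.6%, 25.2% and 26.98% in BruUV-seq. Genes of 3 to 10 kb took 5.604% and 6.32%, 4.61% and 4.30%, and 5.35% and 14.7% in Bru-seq and 9.46%, 10.9% and 8.84% in BruUV-seq. Bru-seq KO C28 replicate 2 lay beyond the BruUV-seq libraries in both length classes, while the other 5 Bru-seq libraries did not overlap with BruUV-seq. In the longer classes it lay on the Bru-seq side: genes of 300 to 800 kb took 8.02% of its reads, where the rest of Bru-seq ranged from 8.92% to 13.8% and BruUV-seq from 6.75% to 7.51%, and genes of 800 kb or more took 2.1595%, where the ranges were 0.778% to 1.21% and 0.543% to 0.622%.

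The log2 ratio of reads in genes of at least 100 kb to reads in genes under 10 kb was 1.58 ± 0.19 in BruUV-seq (SD, n = 3) and 2.56 ± 0.88 in Bru-seq (SD, n = 6). The difference of -0.98 did not pass (exact permutation test, two-sided, p = 0.0952, smallest possible 0.0238). Without Bru-seq KO C28 replicate 2 it was -1.31 (exact permutation test, p = 0.0357). That library, at 0.89, lay below the BruUV-seq range of 1.36 to 1.71, and the other Bru-seq libraries lay above it, at 2.49 to 3.42. Leaving it out removed the only overlap, so this p is no separate evidence for a difference. An exact permutation test within lines with all 9 libraries gave p = 0.148, where 0.0741 is the smallest possible. The median log2 fold change of BruUV-seq over Bru-seq moved with gene length, from 0.65 for 3462 genes of 3 to 10 kb through -0.43 at 30 to 100 kb and -0.85 at 100 to 300 kb to -2.35 for the 117 genes of 800 kb or more. With 8 libraries the same medians were 0.81, -0.32, -0.82 and -1.64. In the longest class the Bru-seq libraries WT replicate 2 (-0.96) and KO C22 replicate 2 (-1.36) lay within the BruUV-seq range of -1.74 to -0.81, as deviations from the mean of 9 libraries. Among genes of 3 to 10 kb 18.4% rose and 0.846% fell in the 8-library test, and among genes of 300 to 800 kb 0% rose and 18.6% fell. In that test, before length matching, 9.01% of all genes rose and 6.02% fell.

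**Figure D1:**
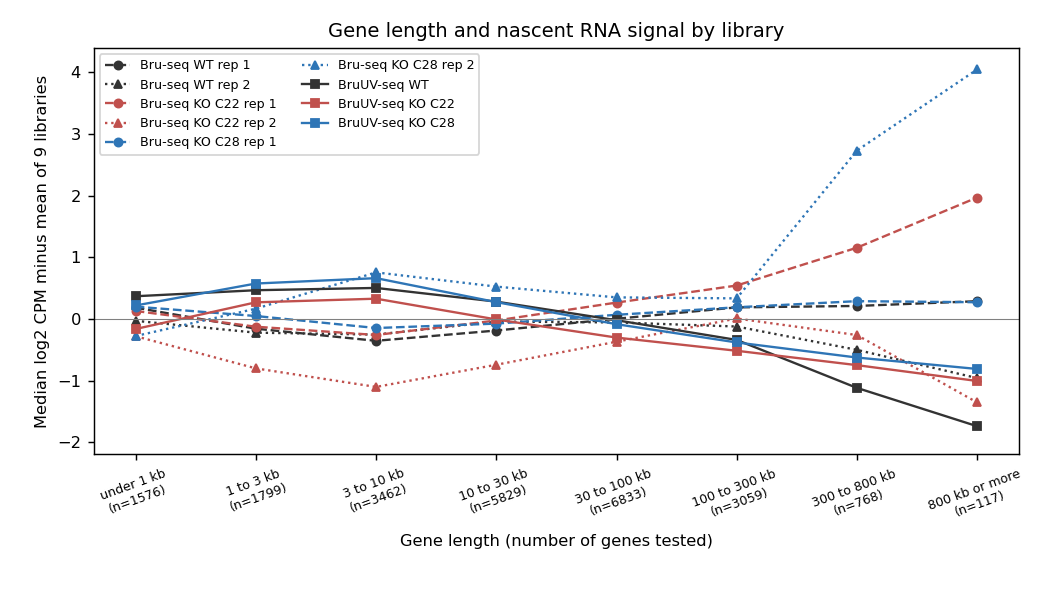
Median log2 CPM minus the gene's mean over the 9 libraries (y) in 8 classes of gene length (x), 1 line per library, before any adjustment for length. The 3 BruUV-seq lines (squares) lie above 0 at 3 to 10 kb, between 0.33 and 0.66, and below it at 300 to 800 kb, between -1.12 and -0.63, while Bru-seq KO C28 replicate 2 reaches 4.05 at 800 kb or more.

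Genes were then tested 1 by 1 with edgeR's quasi-likelihood test, line as a covariate and Benjamini-Hochberg adjustment at 0.05. With all 9 libraries 1 gene of 23443 passed (0.00427%): IER2, an immediate early gene, at a log2 fold change of 3.38 ± 0.36 (SE, adjusted p = 0.0345). At matched gene length, where each library's trend with length is subtracted and 0 is the typical gene of that length, edgeR called 0 genes (0.00%), with 2209 genes higher (9.42%) and 1756 lower (7.49%) at an unadjusted p under 0.05 and 1621 genes called by DESeq2. Without Bru-seq KO C28 replicate 2 edgeR called 3305 of 21986 genes before length matching (15.0%), 1981 up (9.01%) and 1324 down (6.02%). At matched length it called 1223 (5.56%), of which 807 were higher in BruUV-seq (3.67%) and 416 lower (1.89%). All 1223 had the same sign in the fit of 9 libraries, 1082 of them with an unadjusted p under 0.05. The 9 libraries include the 8 in which these genes were chosen, so this is no separate evidence. DESeq2 on the 8 libraries gave 3083 up and 3524 down before matching and 2026 up and 1825 down at matched length. The edgeR calls needed each BruUV-seq library: without any 1 of the 3, or without Bru-seq KO C28 replicate 1, edgeR called 0 genes at matched length. Without BruUV-seq KO C22, KO C28 or WT or Bru-seq KO C28 replicate 1 it called 0, 2, 863 and 21 before matching, and without WT replicate 1, WT replicate 2 or KO C22 replicate 1 of Bru-seq 567, 2458 and 632 at matched length. In CPM, with no test, all BruUV-seq libraries lay above all 6 Bru-seq libraries for 1743 of 23443 genes (7.44%) and below them for 914 (3.90%). Below, rose and fell mean called in the 8-library edgeR test at matched length, where none of the genes named passed with all 9 libraries; IER2 passed with 9 only without length matching.

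Genes with the largest gains coded for matrix and junction proteins, a lipid enzyme, membrane receptors and channels, and early response factors. The genes named for the largest gains and losses were chosen for having no overlap between the assays in CPM. That separation is therefore no result. IER2 (chr19:13150415-13154908, GRCh38, 4.49 kb) was at 19.8 and 28.3, 14.8 and 7.63, and 14.9 and 40.5 CPM in Bru-seq and at 211, 155 and 254 CPM in BruUV-seq. The rise was 2.88 ± 0.30 (log2 fold change, SE, adjusted p = 0.0208). AGRN (chr1:1020123-1056118), coding for the basement membrane proteoglycan agrin, was at 6.39 and 14, 10.4 and 23.8, and 7.75 and 28.2 CPM in Bru-seq, and at 48.5, 176 and 126 CPM in BruUV-seq. It rose by 3.15 ± 0.39 (adjusted p = 0.0208), with WT the lowest of the BruUV-seq libraries.

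LAMA5 (chr20:62309065-62367312, 58.2 kb), the laminin alpha 5 chain, stood at 23.2 and 48.6, 16.7 and 37.4, and 35.2 and 96.1 CPM in Bru-seq and at 133, 203 and 346 CPM in BruUV-seq. FASN (chr17:82078333-82098332), the enzyme that makes palmitate, stood at 31 and 110, 14.5 and 41.7, and 27.3 and 172 CPM in Bru-seq and at 249, 422 and 487 CPM in BruUV-seq. LAMA5 rose by 2.91 ± 0.38 (adjusted p = 0.0208) and FASN by 3.04 ± 0.53 (adjusted p = 0.0231). In both genes Bru-seq KO C28 replicate 2 was the highest Bru-seq library. ADM, which codes for the vasodilator peptide adrenomedullin and is 2.72 kb long, was at 36.8 and 28.6, 18.4 and 17.6, and 30.5 and 130 CPM in Bru-seq and at 318, 144 and 395 CPM in BruUV-seq. ADM rose by 2.63 ± 0.27 (adjusted p = 0.0208), and the lowest BruUV-seq value, in KO C22, was close to Bru-seq KO C28 replicate 2.

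The other 7 gainers were RAD50, a subunit of the complex that senses DNA double-strand breaks, PPL (the junction protein periplakin), the T-type calcium channel gene CACNA1H, the receptor gene NOTCH1, the calpain gene CAPN15, WDR90 and the mechanosensitive channel gene PIEZO1. Their log2 fold changes ran from 2.61 to 2.85, with adjusted p from 0.0208 to 0.0391. RAD50 went from 1.12 to 7.31 CPM over the Bru-seq libraries to 9.36, 16.4 and 16.1 CPM in BruUV-seq. PPL was the most abundant of them, at 36.5 to 285 CPM in Bru-seq and 357, 1064 and 848 CPM in BruUV-seq. Of these 12 genes, PPL, CACNA1H, CAPN15, WDR90 and PIEZO1 lie on chromosome 16. Chromosome 16 held 1003 of the 21986 genes tested with 8 libraries and 79 of the 807 that rose. The 12 were picked by size of change and separation, so their positions are a description. FTSJ3, a gene of ribosomal RNA processing, was among the 5 largest gains before length matching, with 10.5 to 52.4 CPM in Bru-seq and 54.5, 463 and 140 CPM in BruUV-seq (3.11 ± 0.52, adjusted p = 0.0122).

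**Figure D2:**
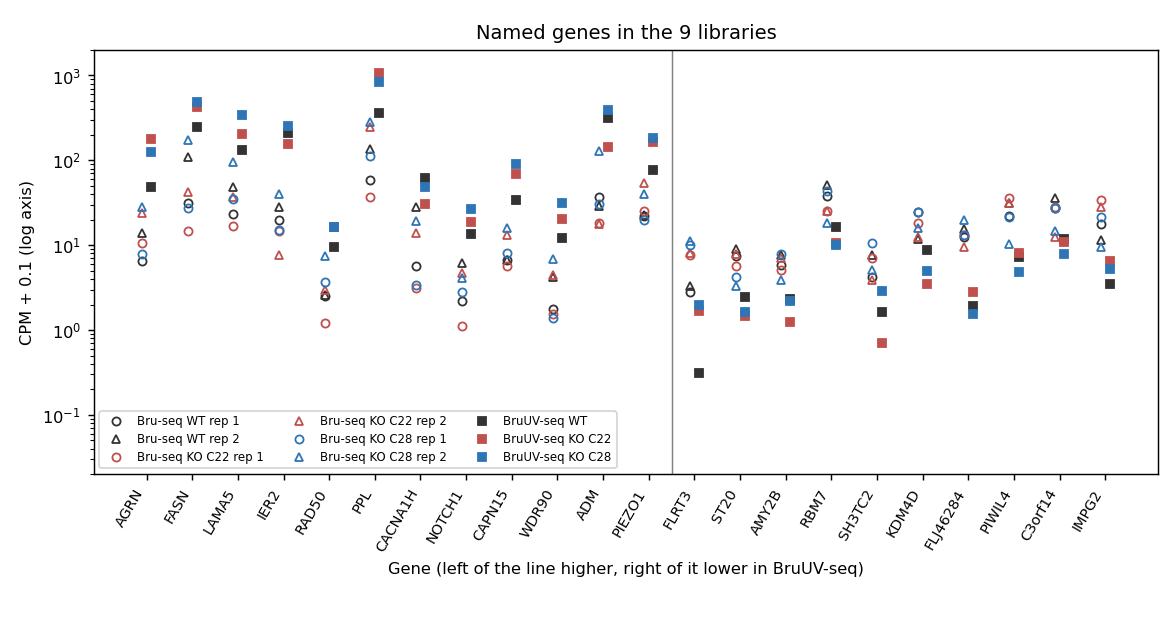
CPM plus 0.1 on a log axis (y) of the 12 genes with the largest gains (left of the line) and 10 of those with the largest losses (right) in each of the 9 libraries; open symbols are Bru-seq and filled squares BruUV-seq. For each gene all 3 squares lie on 1 side of the open symbols, which the choice of these genes required; IER2 is at 155 to 254 CPM in BruUV-seq and at 7.63 to 40.5 CPM in Bru-seq.

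Genes with the largest losses at matched length held an adhesion receptor, an exosome adaptor and genes known from germ cells and retina. RBM7 (chr11:114400030-114414203, 14.2 kb), part of the complex that brings the nuclear exosome to short-lived RNAs, was at 38.1 and 50.5, 25.2 and 25.2, and 43.2 and 18.1 CPM in Bru-seq and at 16.1, 10.6 and 9.84 CPM in BruUV-seq. It fell by 2.05 on the log2 scale (SE 0.28, adjusted p = 0.0208), and the groups lay closest at Bru-seq KO C28 replicate 2. FLRT3 (chr20:14322988-14337616, 14.6 kb), an adhesion receptor, was at 2.70 and 3.19, 7.51 and 8.04, and 10.02 and 11.1 CPM in Bru-seq and at 0.208, 1.59 and 1.86 CPM in BruUV-seq. Its log2 fold change of -3.25 (SE 0.49, adjusted p = 0.0208) was the largest fall, on 5, 21 and 35 reads in the BruUV-seq libraries.

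PIWIL4 (chr11:94567308-94621421, 54.1 kb), an Argonaute protein of germ cells, was at 21.7 and 31, 35.4 and 31.1, and 21.6 and 10.2 CPM in Bru-seq and at 7.12, 8.10 and 4.68 CPM in BruUV-seq, a fall of 1.84 (SE 0.29, adjusted p = 0.0208). KDM4D (25.8 kb), a histone H3 lysine demethylase, was at 24.7 and 11.8, 18.3 and 12.2, and 24.5 and 16 CPM in Bru-seq and at 8.57, 3.41 and 4.84 CPM in BruUV-seq, a fall of 1.99 (SE 0.44, adjusted p = 0.0363). IMPG2 (chr3:101222546-101320560, 98 kb), a proteoglycan of the retina, was at 17.5 and 11.4, 34.2 and 28.3, and 21.5 and 9.45 CPM in Bru-seq and at 3.41, 6.43 and 5.16 CPM in BruUV-seq, a fall of 1.68 (SE 0.30, adjusted p = 0.0247). In all 3 genes Bru-seq KO C28 replicate 2 or WT replicate 2 was the Bru-seq library nearest to BruUV-seq.

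Very long genes of nerve cells were lower before length matching. ADGRB3 (754 kb), an adhesion receptor of neurons, was at 5.85 and 1.96, 23.2 and 1.16, and 8.05 and 128 CPM in Bru-seq and at 0.541, 0.757 and 1.01 CPM in BruUV-seq, on 13, 10 and 19 reads. Bru-seq KO C28 replicate 2 was far the highest library and KO C22 replicate 1 the next. The groups did not overlap, which the choice of these genes required. ADGRB3, CNTN5, STXBP5L and SEMA5A, genes of 511 to 1340 kb, were among the 5 largest losses before length matching (log2 fold changes -3.29 to -2.90, adjusted p 0.0347 to 0.0454). At matched length they were at -1.66 to -1.05 with adjusted p of 0.136 to 0.196, so their losses without matching did not pass once genes of like length were the standard. Other losses called at matched length were ST20, AMY2B, SH3TC2, C3orf14 and the noncoding FLJ46284, with log2 fold changes of -2.25 to -1.75; AMY2B, a pancreatic amylase, has near-identical copies and its count is uncertain.

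Immediate early and AP-1 genes, which code for the first transcription factors made after stress, stood higher in BruUV-seq. Of 37 members tested 6 rose and 0 fell (16.2% up, against 3.67% of all genes). With 9 libraries 30 of 38 had a log2 fold change above 0 (78.9%, against 47.9% of all genes). Their median was 0.74, against -0.05 over all genes. Of protein-coding genes as a whole 55.1% lay above 0, the median was 0.12, and 5.17% rose. JUN was at 69.6 and 182, 59.4 and 78.7, and 66.4 and 160 CPM in Bru-seq and at 659, 398 and 568 CPM in BruUV-seq, and rose by 1.91 ± 0.35 (adjusted p = 0.0253). JUNB, its AP-1 partner, was at 3.87 and 12.6, 4.68 and 0.848, and 5.6 and 8.53 CPM in Bru-seq and at 54.6, 32.9 and 38.5 CPM in BruUV-seq, and rose by 2.53 ± 0.53 (adjusted p = 0.0308). Both genes were separate in the 9 libraries. The other members that rose were IER2, JUND, DUSP1 and PPP1R15A. FOS did not pass: it was at 21.7 and 68.8 CPM in Bru-seq WT, 0.439 to 2.74 CPM in the Bru-seq clones, 97.8 CPM in BruUV-seq WT and 12.4 and 32.4 CPM in the BruUV-seq clones (2.22 ± 0.61, adjusted p = 0.0599). In each line BruUV-seq was above both Bru-seq libraries for FOS, while the levels of the lines differed. Bru-seq WT replicate 2 had the highest median of the list of any library, 1.27, above BruUV-seq WT at 1.01, and without BruUV-seq KO C28 the list's log2 fold change had a median of 0.20, and without Bru-seq WT replicate 2 it was 1.13.

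Genes of the integrated stress and unfolded protein responses, which adjust translation and amino acid supply, were at a median of 0.70 in both readings. Protein-coding genes as a whole had a median of 0.12 (0.07 with 8 libraries), and 5.17% of them rose. Of 38 members 7 rose (18.4%, against 3.67% of all genes) and 0 fell: ATF4, the transcription factor at the centre of the response, its targets DDIT4, CHAC1, SLC7A5 and SLC3A2, the chaperone gene HYOU1, and PPP1R15A, which encodes a phosphatase subunit that restores translation and is also on the list of early genes. SLC7A5 and SLC3A2 encode the chains of 1 amino acid transporter. SLC7A5 was at 59.8 and 148, 54.3 and 98.6, and 47.4 and 51.3 CPM in Bru-seq and at 244, 276 and 324 CPM in BruUV-seq, and rose by 1.92 ± 0.37 (adjusted p = 0.0266). SLC3A2 was at 55.6 to 109 CPM in Bru-seq and 255, 183 and 164 CPM in BruUV-seq, and rose by 1.07 ± 0.24 (adjusted p = 0.0376). The BruUV-seq values of both chains lay above all Bru-seq values. Without BruUV-seq KO C22 the median of the list was 0.33.

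Matrix genes held the largest share of members that rose of the lists described here, 9 of 39 (23.1%). Of all genes 3.67% rose, and of protein-coding genes 5.17%. Of the matrix members 0 fell, against 1.89% of all genes, and their median was 0.48 with 9 and 0.55 with 8 libraries. The members that rose were AGRN and LAMA5, LAMB2, HSPG2 (perlecan), and the collagen genes COL1A1, COL4A2, COL6A1, COL7A1 and COL18A1. COL7A1, the anchoring fibril collagen, ranged from 3.69 to 59.6 CPM in Bru-seq and was at 13.2 CPM in BruUV-seq WT and 245 and 176 CPM in BruUV-seq KO C22 and KO C28 (2.54 ± 0.50, adjusted p = 0.0268). BruUV-seq WT thus lay within the Bru-seq range, and the list's difference was 0.21 in WT, 0.63 in KO C22 and 1.16 in KO C28. Its median was 0.26 without BruUV-seq KO C28 and 0.73 without BruUV-seq WT.

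Replication-dependent histone genes, a family of short genes without introns that is read in S phase, had a median of 1.14 with 9 libraries and 1.5 with 8. With 9 libraries 42 of the 51 tested of 65 lay above 0 (82.4%, against 47.9% of all genes and 55.1% of protein-coding genes). In the test 3 rose (HIST4H4, HIST1H3A and HIST1H2BG), 5.88% against 3.67% of all genes, which is near that background, and 0 fell. The 9-library median was 0.14 over the 24 members with at least 100 counts on average and 0.26 when the fit held protein-coding genes alone. Histone copies are near-identical in sequence, so single members are uncertain. HIST1H3A was at 0.856 and 0.123, 0.731 and 0.223, and 0.861 and 2.89 CPM in Bru-seq and at 4.62, 6.59 and 4.2 CPM in BruUV-seq (3.13 ± 0.69, adjusted p = 0.0349). The list's medians were -1.71 and -2.04 in Bru-seq replicate 2 of WT and KO C22, 0.10, -0.17 and 0.01 in the replicates 1, 1.47 in KO C28 replicate 2, and 0.60, 1.49 and 0.36 in BruUV-seq. The difference between assays was 1.28 in WT, 2.57 in KO C22 and -0.04 in KO C28, and with Bru-seq KO C28 replicate 1 alone 0.34. The list's median was 0.34 without BruUV-seq KO C22 and 1.85 without BruUV-seq KO C28. Mitosis genes stood at -2.09 in the same Bru-seq WT replicate 2, and the part of growth state in the histone values was not tested.

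Genes of the transcription and RNA machinery also stood above the median of all genes. Of all genes 3.67% rose and 1.89% fell, and of protein-coding genes 5.17% and 1.98%. RNA polymerase II pausing and elongation genes had a median of 0.41 (0.37 with 8 libraries) and 5 of 44 rose (11.4%): SUPT5H and NELFB, which code for subunits of the pausing factors DSIF and NELF, the elongation factor genes SUPT6H and PAF1, and POLR2E. PAF1 was at 152 and 187, 115 and 553, and 189 and 655 CPM in Bru-seq and at 641, 6409 and 1292 CPM in BruUV-seq, so that KO C22 carried the highest value by far (2.31 ± 0.55, adjusted p = 0.0418). Among ribosome biogenesis genes 6 of 42 rose (14.3%) and 1 fell (median 0.48 and 0.38, and 0.30 without BruUV-seq KO C22), with BOP1 at 9.21 to 21.8 CPM in Bru-seq and 36.5, 46 and 57.5 CPM in BruUV-seq (1.71 ± 0.34, adjusted p = 0.0278). Splicing factor genes were split, with 6 of 50 that rose (12%), among them PRPF8 and PTBP1, and 2 that fell, TRA2B and CLK4, which encode a splicing regulator and a kinase of splicing factors. In the KDM6 and COMPASS-like list the H3 lysine 4 methyltransferase genes KMT2D and KMT2B rose (2.03 ± 0.41 and 1.8 ± 0.41, adjusted p = 0.0294 and 0.0387), and the other 11 members did not pass.

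The excision repair and p53 lists lay near all genes. Of all genes 3.67% rose and 1.89% fell, and of protein-coding genes 5.17% and 1.98%. The nucleotide excision repair list had a median of 0.05 (-0.11 with 8 libraries), with ERCC1 and ERCC2, the nuclease partner and helicase of the pathway, up and CCNH, the cyclin of the same TFIIH complex as ERCC2, down. ERCC1 was at 13.9 to 49.2 CPM in Bru-seq and at 58.5, 59.7 and 54.2 CPM in BruUV-seq (1.53 ± 0.34, adjusted p = 0.0372). The p53 list had a median of 0.11 (-0.05 with 8 libraries) and 1 of 34 members rose (2.94%). That gene was GDF15, a stress cytokine, at 13.9 and 83.8, 4.68 and 5.80, and 9.47 and 66.9 CPM in Bru-seq and at 630, 43.6 and 206 CPM in BruUV-seq (3.00 ± 0.52, adjusted p = 0.0230). GDF15 in BruUV-seq KO C22 lay below 2 Bru-seq libraries of other lines. CDKN1A, the p53 target that stops the cell cycle, was at 9.14 to 40.4 CPM in Bru-seq and at 27.7, 75.1 and 57.2 CPM in BruUV-seq and did not pass (0.54 ± 0.40, adjusted p = 0.411). The list of DNA damage signalling and other repair genes had a median of 0.28 (0.06 with 8 libraries), and 3 of 42 rose (7.14%): RAD50, the Fanconi anaemia gene FANCA and the histone variant gene H2AFX; 0 fell. Interferon genes had a median of -0.18 (-0.20 with 8 libraries) with 0 of 40 called. Ribosomal protein genes had a median of -0.17 (-0.10) with 2 up and 1 down of 79 (2.53% and 1.27%), near the shares of all genes.

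**Figure D3:**
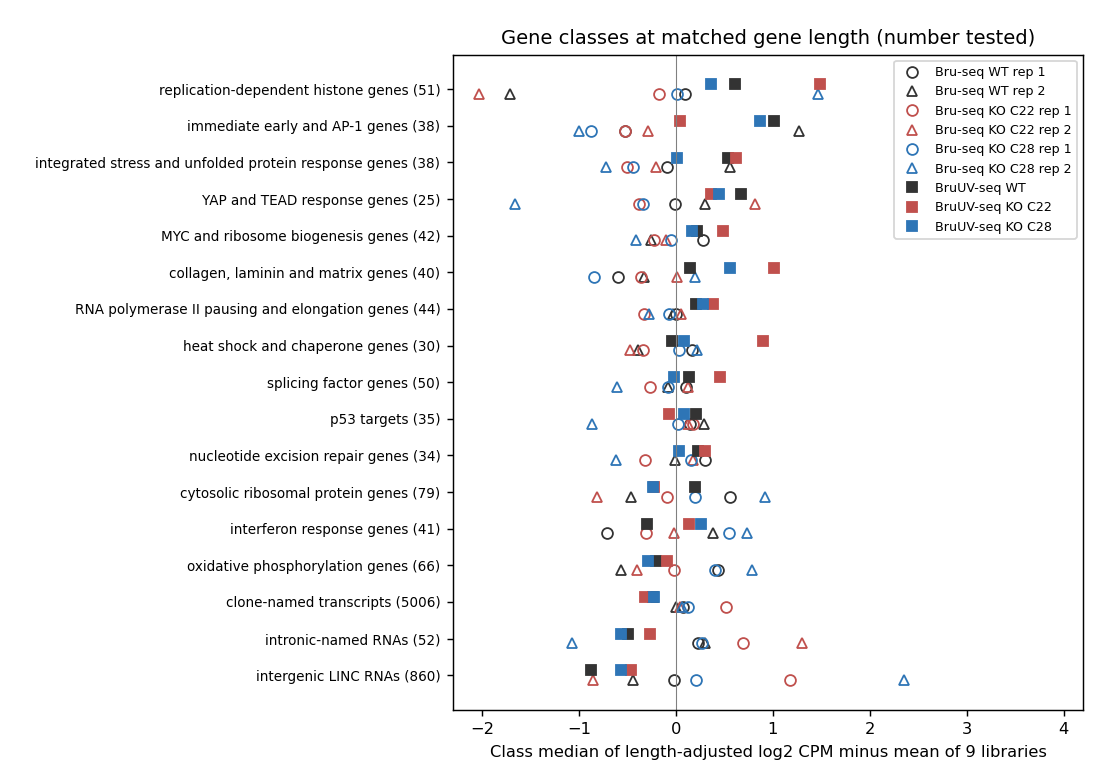
Class median of log2 CPM after each library's length trend is removed, minus the mean of 9 libraries (x), for 17 classes (y, number of genes tested in brackets); open symbols are Bru-seq and filled squares BruUV-seq. For RNA polymerase II genes the BruUV-seq medians of 0.21 to 0.38 lie above all Bru-seq medians and for clone-named transcripts those of -0.32 to -0.23 lie below them, while for p53 and repair genes the symbols mix.

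Several classes of noncoding and poorly annotated transcripts had medians below that of all genes. In clone-named transcripts and long intergenic noncoding RNAs the shares called lower were near or under the 1.89% of all genes. Transcripts named only by a clone were at a median of -0.66 over 5006 tested (-0.53 with 8 libraries), 29 rose and 91 fell of 4447 (0.652% and 2.05%), and the medians were -0.24, -0.32 and -0.23 in BruUV-seq against 0.05 to 0.51 in 5 Bru-seq libraries and near 0 in Bru-seq WT replicate 2. Long intergenic noncoding RNAs (LINC) were at -1.66 over 860 (-0.91 with 8 libraries), with 5 up and 7 down of 680 (0.735% and 1.03%), and 83 had no read in any BruUV-seq library. Genes with no read in 1 assay were then set at a bound of 3 reads in each of its libraries. They were left out where that bound reached the mean of the other assay. With these bounds the median was -1.48. Their medians in Bru-seq were 2.35 in KO C28 replicate 2 and 1.18 in KO C22 replicate 1, the libraries with the largest shares of reads outside genes, and -0.86 to 0.21 in the others, against -0.87, -0.46 and -0.56 in BruUV-seq. The groups overlap without those libraries, and the part of reads outside genes in the LINC medians was not tested. RNAs named for an intron of another gene were at -0.92 (52 tested), ribosomal protein pseudogenes at -0.73 (72) and microRNA host genes at -0.80 (42). With 8 libraries these medians were -1.08, -0.78 and -0.48. Of 56 intron-named RNAs 2 fell (3.57%) and of 39 microRNA host genes 1 fell (2.56%), against 1.89% of all genes. In both classes 0 rose, and 0 of 75 pseudogenes were called. Antisense-named RNAs (700 tested, median -0.15) and snoRNA host genes (27 tested, median -0.06) lay near the -0.05 of all genes.

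Nuclear-encoded oxidative phosphorylation genes, which build the respiratory chain, had a median of -0.33 (-0.26 with 8 libraries). Of 66, 19 lay above 0 (28.8%, against 47.9% of all genes). The list's difference was -0.23 in WT, 0.16 in KO C22 and -0.71 in KO C28. With 8 libraries 1 rose and 1 fell (1.52% each, against 3.67% and 1.89% of all genes). ATP5E fell by 1.48 (SE 0.37, adjusted p = 0.0471) and ATP5D, another subunit gene of ATP synthase, rose. The list's median was 0.02 without BruUV-seq KO C28. By type of gene, protein-coding genes were at 0.12 (0.07 with 8 libraries) with 747 up and 286 down of 14458 (5.17% and 1.98%) and long noncoding RNAs at -0.72 (-0.46 with 8 libraries) with 13 up and 22 down of 1601 (0.812% and 1.37%, against 3.67% and 1.89% of all genes). Small nuclear RNA genes (17 tested, median 1.60, and 1.47 with 8 libraries) and microRNA genes (66 tested, median 1.27, and 1.02) were above 0. In these classes 1 and 2 were called up (5.56% and 2.78%, against 3.67% of all genes). Most had few reads, with 2 and 1 members averaging at least 100 counts. The small nuclear RNA difference was 2.61 in WT and 2.21 in KO C22 but 0.37 in KO C28.

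Chromosomes differed. On chromosome 19 the median was 0.53 and 158 of 1374 genes rose (11.5%) while 5 fell (0.364%), against 3.67% and 1.89% of all genes. On chromosome 22 it was 0.78, with 37 up (8.10%) and 0 down of 457. Chromosomes 16 and 17 were at 0.42 each. The lowest were chromosome 4 at -0.53, chromosome 18 at -0.43 and chromosome 13 at -0.41. Of 831 genes on chromosome 4, 18 rose and 23 fell (2.17% and 2.77%), so its calls lay nearer to the shares of all genes. With 8 libraries chromosomes 19, 22, 16 and 17 were at 0.58, 0.67, 0.41 and 0.39 and chromosomes 4, 18 and 13 at -0.49, -0.40 and -0.40. In each line chromosomes 16, 17, 19 and 22 were at 0.35 or more and chromosomes 4, 13 and 18 at -0.15 or less, so the pattern did not rest on 1 line. Chromosomes 16, 17, 19 and 22 are known as gene-rich and GC-rich, and 4, 13 and 18 as gene-poor and AT-rich.

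**Figure D4:**
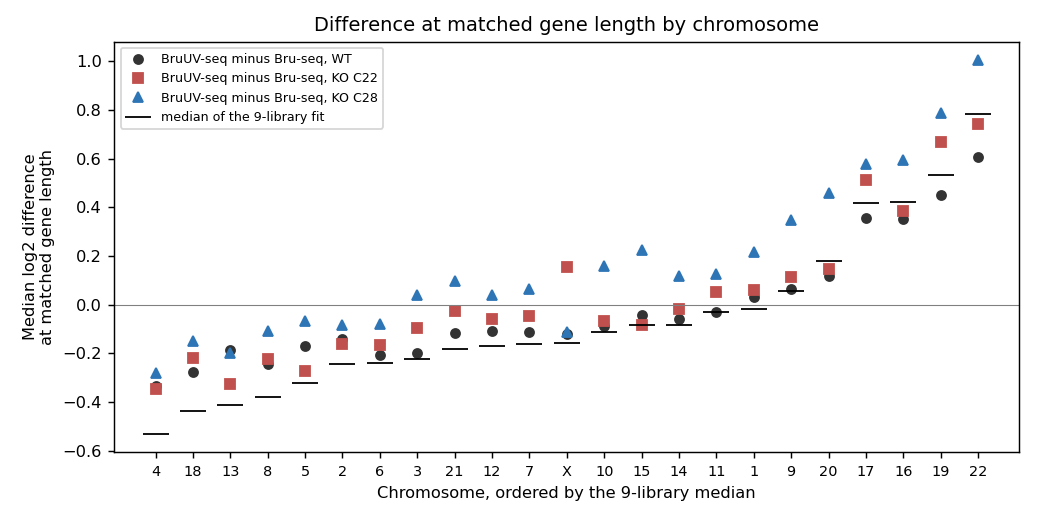
Median log2 difference of BruUV-seq from Bru-seq at matched gene length (y) on each chromosome (x, ordered by the fit of 9 libraries, black bars), with the difference of the line's own libraries for WT (circles), KO C22 (squares) and KO C28 (triangles). In all 3 lines chromosomes 16, 17, 19 and 22 lie at 0.35 or more and chromosomes 4, 13 and 18 at -0.15 or less.

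Promoters are shown because the difference between the assays went with their base content: the 250 bases before the RefSeq start (GRCh38.p14) of a pair that rose, LAMA5 (chr20:62367313-62367562, minus strand) and IER2 (chr19:13150161-13150410, plus strand), and of a pair that fell, FLRT3 (chr20:14337613-14337862, minus strand) and IMPG2 (chr3:101320576-101320825, minus strand). Capitals mark CpG pairs.
LAMA5: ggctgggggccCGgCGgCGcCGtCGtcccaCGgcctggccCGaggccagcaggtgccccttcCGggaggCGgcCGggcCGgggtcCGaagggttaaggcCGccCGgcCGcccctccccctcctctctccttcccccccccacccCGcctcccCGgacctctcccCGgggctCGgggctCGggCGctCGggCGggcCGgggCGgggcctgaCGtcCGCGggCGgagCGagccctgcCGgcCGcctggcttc
IER2: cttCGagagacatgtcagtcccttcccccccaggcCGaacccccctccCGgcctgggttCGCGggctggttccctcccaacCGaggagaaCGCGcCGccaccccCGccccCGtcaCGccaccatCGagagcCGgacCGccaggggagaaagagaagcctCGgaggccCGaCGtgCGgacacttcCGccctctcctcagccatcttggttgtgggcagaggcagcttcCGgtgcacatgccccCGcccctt
FLRT3: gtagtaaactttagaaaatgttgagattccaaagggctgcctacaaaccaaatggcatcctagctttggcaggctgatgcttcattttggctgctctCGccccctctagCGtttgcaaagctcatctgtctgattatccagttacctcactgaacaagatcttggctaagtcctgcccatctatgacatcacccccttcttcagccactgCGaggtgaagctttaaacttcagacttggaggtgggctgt
IMPG2: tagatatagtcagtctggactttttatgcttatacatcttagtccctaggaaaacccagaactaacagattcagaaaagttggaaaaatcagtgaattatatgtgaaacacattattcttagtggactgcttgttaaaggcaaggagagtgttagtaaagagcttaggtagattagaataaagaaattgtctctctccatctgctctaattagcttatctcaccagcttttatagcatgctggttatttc

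LAMA5 holds 32 CpG pairs in these 250 bases and IER2 22, against 3 in FLRT3 and 0 in IMPG2, and their GC contents are 82.8%, 69.6%, 47.6% and 34.8%. Over windows of 300 bases, 250 before to 50 after the start, the 8 named genes that rose with an entry in the promoter table had a GC content of 65.0% to 82.7% (median 74.7%) and the 7 that fell one of 30.7% to 70.0% (median 58.0%). The promoters printed above are chosen examples and not typical of the named genes. In these windows LAMA5 had the highest GC content of the named gains, and IER2, at 69.7%, lay below their median. FLRT3 (48.7%) and IMPG2 (35.3%) were the lowest of the named losses after AMY2B (30.7%). SH3TC2 and RBM7, which also fell, had 65.0% and 64.7%. For ST20 and AMY2B the RefSeq start lies 8496 and 16349 bases from the start in the count tables. The median over 12243 protein-coding genes tested was 64.7%, so the genes that rose lay above it and those that fell on both sides. CpG pairs in the 300 bases overlapped between the directions: RBM7, ST20 and KDM4D, which fell, had 34, 32 and 24, while ADM and IER2, which rose, had 16 and 27.

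Over all 12243 protein-coding genes with a promoter (81.4% of those tested) the median at matched length went up over 5 classes of promoter GC of like size, at -0.36, -0.01, 0.15, 0.26 and 0.48, and with 8 libraries at -0.29, -0.07, 0.07, 0.17 and 0.43. In the 8-library test 1.65% of the lowest class and 11.03% of the highest rose, and 2.32% and 0.744% fell. Of all protein-coding genes tested 5.17% rose and 1.98% fell. Between the highest and the lowest class the medians differed by 0.55 to 1.11 in each of 6 length classes from 1 to 800 kb, so the relation held within genes of like length. Spearman's rho across genes, which are not independent replicates, was 0.298 with 9 and 0.262 with 8 libraries, while promoter GC went with gene length at 0.024 and with mean count at 0.166. The highest class stood above the lowest by 0.44, 0.46 and 0.53 in the BruUV-seq libraries. In Bru-seq it stood above it by 0.20 and 0.23 in replicate 2 of WT and KO C22 and below it in the other 4 libraries, at -0.27, -0.59, -0.37 and -0.74. All 3 BruUV-seq values were thus above all 6 Bru-seq values, and the Bru-seq values ranged from -0.74 to 0.23, a wider spread than the gap between the assays. What sets base content apart between these libraries was not tested.

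**Figure D5:**
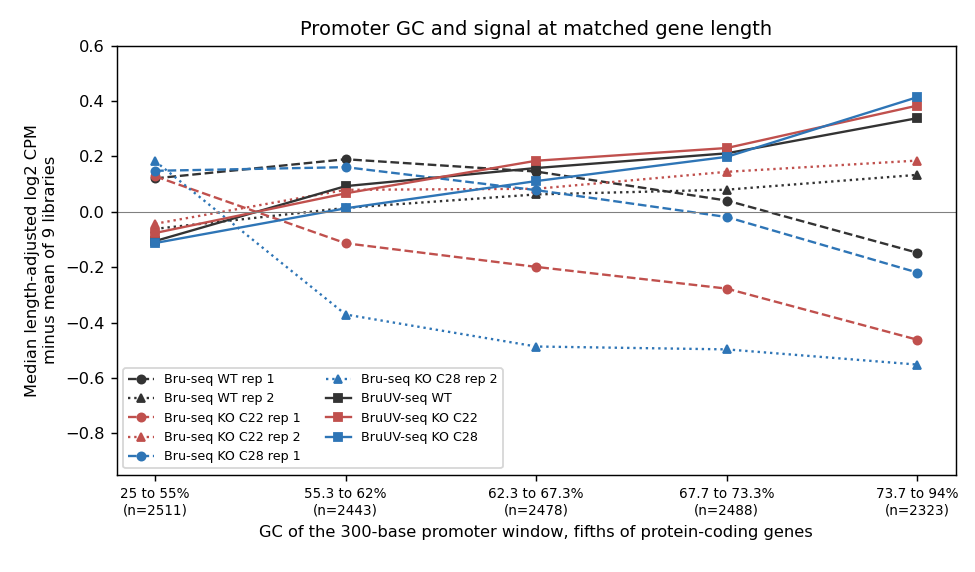
Median log2 CPM at matched gene length minus the mean of 9 libraries (y) in 5 classes of promoter GC content over protein-coding genes (x), 1 line per library. The BruUV-seq lines (squares) rise from -0.11 to -0.08 in the lowest class to 0.34 to 0.41 in the highest, Bru-seq WT and KO C22 replicate 2 rise less, and the other 4 Bru-seq lines fall.

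Among promoters of the early gene list 4 of 27 (14.8%) held the cyclic AMP response element TGACGTCA on either strand, as did 9 of 60 histone promoters, against 1.98% of all 27305 promoters of 300 bases. The AP-1 motif TGANTCA, which does not match that element, was in 1 of the 27 (3.70%) against 7.76% of all. The CCAAT box was in 51 of 60 histone promoters (85.0%) and 24 of 34 of the stress response list (70.6%) against 35.7%. These matches describe the windows and say nothing of binding.

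Across 11811 genes that averaged 100 counts or more, the difference of BruUV-seq from the line's own Bru-seq libraries at matched length (without Bru-seq KO C28 replicate 2) correlated at 0.669 between WT and KO C22, 0.742 between WT and KO C28 and 0.712 between the clones. Genes share length and base content across lines, so these values are descriptions. The test for a UV difference that depends on the line called 0 of 23443 genes (0.00%; edgeR, 60 with an unadjusted p under 0.05), with DESeq2 also at 0, and edgeR again at 0 without Bru-seq KO C28 replicate 2. With 1 BruUV-seq library per line it has little to work with, and a difference between lines was not shown to be absent. Per-line medians of heat shock genes stood at -0.04 in WT, 1.17 in KO C22 and -0.05 in KO C28. HSP90AA1, a cytosolic chaperone, was at 104 to 699 CPM in Bru-seq and at 357, 2698 and 591 CPM in BruUV-seq and did not pass between the assays (2.28 ± 0.58, adjusted p = 0.0505).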

How the data were processed

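Bru-seq and BruUV-seq were processed by the authors with CASAVA 1.8.2, Bowtie2 2.3.3, STAR 2.5.3a and bedtools 2.16.2 on hg38 (GRCh38), per the submitters' processing notes. The deposited tables list 57733 genes with an expected count (estimated reads over the gene, rounded here) and an RPKM value made by the authors; the annotation release and the counting rule are not given in the sources used here, and a further column, the bases counted, was below the gene span in 13.6% of genes. Libraries were fitted with edgeR 4.0.16 (R 4.3.3; filterByExpr, TMM, quasi-likelihood, line plus assay). For matched length, a lowess (span 0.3) of log2 CPM (prior count 2) minus the gene's mean on log10 gene span gave offsets per library. DESeq2 1.42.0 and limma 3.58.1 were alternatives. The tests were tested on simulated data. Members, the 25 gene lists (926 of 947 symbols in the tables) and 14 name classes were chosen with earlier results of these data known. Named genes are the 12 largest gains and losses at matched length and 5 without, among genes that passed with a mean of at least 100 counts and no overlap between assays, in the fit of 8 libraries because 1 gene passed with 9, and up to 4 of the smallest p per list; HSPG2, HYOU1 and other members are named as the ones that passed. Promoters (RefSeq, GRCh38.p14) were matched by name (35128 genes matched the reference by symbol and 1672 by synonym). Results for some genes that the rule picks are not reported here. Base content of gene bodies was not analysed here.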

Additional observations from a re-analysis of the deposited data

Results flagged for a closer look

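In 5 of 34 sets of 6 Bru-seq libraries, 1 library lay further from the rest than Dixon's limit allows, where chance gives about 1 in 20. Bru-seq KO C28 replicate 2 had 46.5% of reads outside genes, with the nearest library at 20.01%, and a log2 ratio of long to short gene reads of 0.89, with the nearest at 2.49. The same library had the highest CPM of ADM, 130, against 36.8 in the next. Bru-seq WT replicate 2 had a median of 1.27 for immediate early genes at matched length, with the nearest library at -0.29. Bru-seq KO C22 replicate 1 had a median of 0.51 for clone-named transcripts, with the nearest at 0.13.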

How the results depend on the processing

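Counts of called genes depended on the settings more than directions did. With 9 libraries and no length matching, 1 gene was called by edgeR, 4109 by DESeq2, 150 by limma-voom, 171 without overlapped genes, 74 with a minimum of 10 reads in all, 864 with the replicate number as a block, and 0 with a mean of at least 100 counts or without the line covariate. At matched length, 0 were called by edgeR, 1621 by DESeq2, 6 by limma, 408 with a minimum of 10 reads in all, 112 with a mean of at least 100 counts, 397 with the replicate block, 1 with medians of 25 length bins, 205 with a trend over length and abundance and 90 among protein-coding genes alone. With 8 libraries, 3305 became 6607 by DESeq2 and 7558 with the replicate block, and 1223 became 3851 by DESeq2, 6049 with the block, 2525 with a mean of at least 100 counts (1258 up, 1267 down), 2288 with length and abundance and 1902 among protein-coding genes. Deviations of same-numbered Bru-seq libraries correlated at 0.428 between WT and KO C22, 0.0081 between WT and KO C28 and -0.480 between the clones. The pairs with KO C28 include the library that stands apart. Replicates 2 of WT and KO C22 correlated across genes at 0.952, against 0.931 between the WT replicates and 0.877 between the KO C22 replicates. Whether libraries of the same number share a batch was not tested. The slope of signal on length passed the exact permutation test (-0.61, p = 0.0238). LINC medians were -0.46, -0.95, -0.65 and -0.040 with the count minimum of 100, limma, length and abundance, and protein-coding genes alone (which leaves few LINC genes), and clone-named medians -0.36, -0.47 and -0.36 under the first 3; the cause was not tested.

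Leaving out each library in turn gave 0 to 3305 calls without length matching and 0 to 1223 with it for 9 libraries (494 and 556 without Bru-seq KO C22 replicate 2, 142 and 0 without WT replicate 2), and 0 to 4486 and 0 to 2458 for 8; the interaction gave 0 to 1. The long to short difference ran from -1.31 to -0.81. Medians ran from 0.34 to 1.85 for histones, 0.20 to 1.13 for early genes, 0.33 to 0.87 for stress genes, 0.26 to 0.73 for matrix, 0.30 to 0.59 for ribosome biogenesis, -0.57 to 0.02 for oxidative phosphorylation, -2.02 to -0.91 for LINC and -0.77 to -0.48 for clone-named transcripts. Of 127 results for single genes rerun under these settings, none that passed changed sign. The histone median was 0.14 with a mean of at least 100 counts (24 genes) and 0.26 among protein-coding genes alone. Depth limits the lowest genes: FLRT3 had 5, 21 and 35 reads in the BruUV-seq libraries.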
